A study of Mus musculus with 6 samples.

Results

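The genes described here are 41 genes of endoplasmic reticulum (ER) protein folding and of the unfolded protein response, listed by symbol and found by exact match in a deposited table of mouse mammary tumor epithelium. Of the 41, 39 stood on a row of their own, among 22001 symbols that did. Calr and Atf6 had no row of their own. The list was sorted by role into 12 chaperones and co-chaperones, 9 enzymes of disulfide bond formation, 8 genes of ER-associated degradation, 5 subunits of the translocon and its partners, and 7 genes of the sensors, their target Xbp1 and the proteases that cut ATF6.

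The study sequenced polyA RNA of epithelial cells enriched from the mammary tumors of 7-week-old female FVBN mice. All animals carried the polyoma middle T oncogene (PyMT). The labels give 3 control tumors and 3 tumors with a conditional knockout of Elp3 made with MMTV-Cre, each tumor from a different mouse. The MMTV promoter drives Cre in mammary epithelium and in some other secretory tissues, so cells without Cre would keep the gene. Elp3 is the catalytic subunit of Elongator, which modifies wobble uridines of tRNA.

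The deposited gene levels do not separate the genotypes. Same-numbered control and knockout columns were equal in all 24308 rows, whereas columns of unlike number differed in every row above 0 that was compared (17606 of 17606 for control number 1 against knockout number 2). There are thus 3 distinct profiles, called profiles 1, 2 and 3 by their number, and none of them is given a genotype here. The values below therefore say nothing of Elp3 loss, and groups cannot be compared. Elp3 itself stood at 15.6, 17.9 and 19.0 FPKM (fragments per kilobase relative to library size, a level per unit of transcript length), on a row spanning the whole gene. Summed FPKM was 622789, 636842 and 621793 in the 3 profiles. FPKM is a level per length, so genes can be set side by side, subject to the transcript lengths used, which were not given. The table gives no counts, so no counting interval can be given.

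Secreted and membrane proteins enter the ER through the Sec61 channel, fold with the help of chaperones such as BiP (Hspa5), and gain disulfide bonds from the protein disulfide isomerases. Proteins that fail to fold are drawn back to the cytosol and degraded. When unfolded proteins build up, the sensors IRE1 (Ern1), ATF6 and PERK (Eif2ak3) are released. IRE1 then splices Xbp1 mRNA, ATF6 is cut by the site-1 and site-2 proteases, and the resulting factors bind ER stress elements in the promoters of chaperone and degradation genes. Secretory epithelia such as the mammary gland depend on this machinery.

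The first set of sequences shows the ER stress element (ERSE) as it stands in the promoters of these genes. The genes were listed by symbol and not by sequence. However, the list holds genes known to respond through such elements, so list and element are not independent. The letters searched were CCAAT and CCACG with 9 bases between them, on both strands, in windows of 300 bases (250 before the RefSeq start of a gene and 50 after it, GRCm38.p6). A window was found for 34 of the 41 genes. Hyou1, Sil1, Manf, Derl1, Sec61a1, Ern2 and Atf6 had none. Of the 34 genes, 10 held the element, and 37 of all 27025 symbols with a window did (0.137%). It was present 11 times, since Hsp90b1 held it both ways round. Each copy is written below in its own reading direction, with CCAAT and CCACG in capitals.

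Hspa5: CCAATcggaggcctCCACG
Hsp90b1, first copy: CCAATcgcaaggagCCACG
Hsp90b1, second copy: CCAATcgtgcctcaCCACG
Calr: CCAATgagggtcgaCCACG
Canx: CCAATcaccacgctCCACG
Dnajc3: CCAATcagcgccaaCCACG
Pdia6: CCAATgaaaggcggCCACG
Ero1lb: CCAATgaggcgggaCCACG
Creld2: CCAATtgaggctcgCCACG
Syvn1: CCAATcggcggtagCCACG
Derl3: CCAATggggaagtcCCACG

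The spacers differ from gene to gene. The copies began between 212 bases (Hsp90b1, at -212) and 44 bases (Syvn1, at -44) before the start. The copy of Creld2 lies between 2 diverging genes and also falls in the window of Alg12, an enzyme of glycan assembly, and that of Calr falls in the window of 1700122E12Rik. A related element, ERSE-II (ATTGG and CCACG with 1 base between them), was found in Herpud1 at -52 and in Dnajb11 at 8 bases after the start. It was found in 12 of all symbols (0.0444%), among them Krtcap2. Sensors, their proteases and the translocon genes that had a window held neither element. With the second block shortened to CCA, 16 of the 34 genes matched, against 1.25% of all symbols. The letters TGACGTGG, known as the unfolded protein response element, were found in 1 of the 3 windows of Txndc5 and in 0.714% of all symbols. A match of letters is not a measured binding site.

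**Figure D1:**
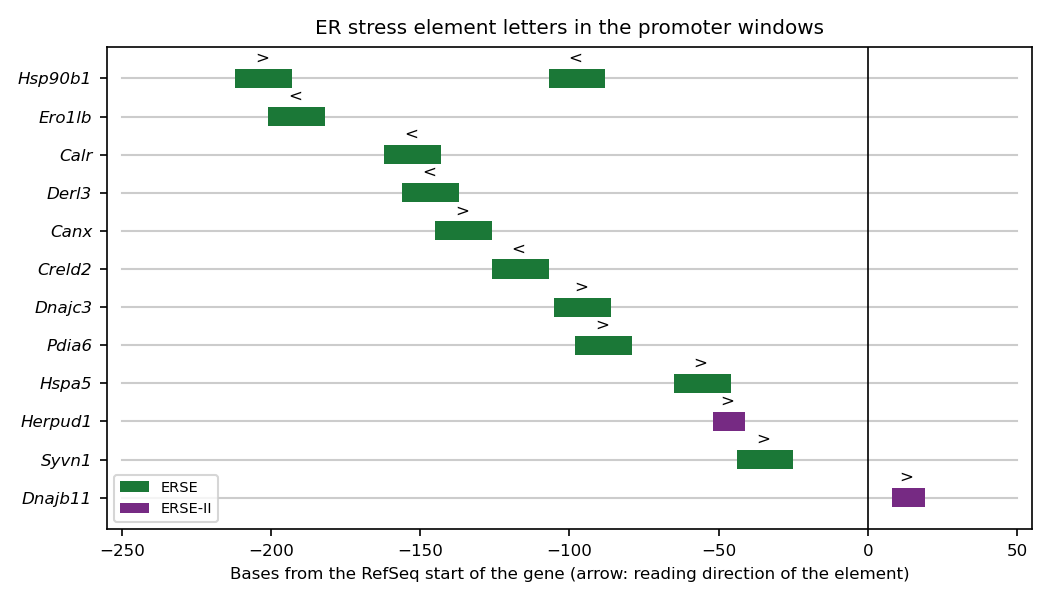
Position of ER stress element letters in the promoter windows of the 12 genes that hold ERSE (green) or ERSE-II (purple). The horizontal axis is the distance in bases from the RefSeq start, grey lines are the windows, and arrowheads give the reading direction; all copies but that of Dnajb11 lie before the start.

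The upstream windows of 3 of these genes are printed to show the element in place, with its outer blocks in capitals. They are Hspa5 on the plus strand (chr2:34771840-34772089), Hsp90b1 on the minus strand (chr10:86705445-86705694) and Herpud1 on the plus strand (chr8:94386179-94386428).

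Hspa5: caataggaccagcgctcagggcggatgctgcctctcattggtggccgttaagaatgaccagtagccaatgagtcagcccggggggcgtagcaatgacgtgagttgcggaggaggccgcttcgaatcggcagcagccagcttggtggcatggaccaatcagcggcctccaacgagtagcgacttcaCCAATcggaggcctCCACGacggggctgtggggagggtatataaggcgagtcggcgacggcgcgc
Hsp90b1: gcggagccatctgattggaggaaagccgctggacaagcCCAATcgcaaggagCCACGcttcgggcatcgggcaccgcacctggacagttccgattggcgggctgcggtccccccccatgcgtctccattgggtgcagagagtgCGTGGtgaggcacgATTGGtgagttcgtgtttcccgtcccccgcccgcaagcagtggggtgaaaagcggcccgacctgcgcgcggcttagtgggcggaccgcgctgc
Herpud1: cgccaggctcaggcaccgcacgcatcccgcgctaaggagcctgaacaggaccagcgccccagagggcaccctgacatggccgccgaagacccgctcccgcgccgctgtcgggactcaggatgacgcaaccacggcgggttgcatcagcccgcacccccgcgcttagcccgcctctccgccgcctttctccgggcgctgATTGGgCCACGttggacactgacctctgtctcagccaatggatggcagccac

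Nearly all of these genes were expressed. Of the 39 on their own rows, 38 had a mean of 1 FPKM or more, against 49.0% of all symbols, and 34 had a mean of 10 FPKM or more. The exception was Ern2, the form of IRE1 known from gut and airway epithelium, which was listed at 0 in all 3 profiles. Together the 39 genes made up 0.687%, 0.599% and 0.654% of summed FPKM in profiles 1, 2 and 3. Hspa5 had the highest level of the 39 and held rank 119 among all symbols by mean. Its range did not overlap that of the next gene, P4hb, whereas P4hb and Hsp90b1 overlapped, and so did Hsp90b1 and Ero1l.

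By role, the median over genes of the mean level was 91.4 FPKM for disulfide enzymes, 88.5 for the translocon, 46.1 for chaperones and co-chaperones, 23.3 for degradation and 20.2 for sensors and proteases. Hspa5, which encodes BiP, the Hsp70 of the ER, stood at 883, 605 and 742 FPKM in profiles 1, 2 and 3 (row at chromosome 2, 34771949 to 34799912, mm10). This row begins inside the upstream window printed above, so its coordinates may reach beyond the gene. Hsp90b1, which encodes the Hsp90 of the ER (GRP94), stood at 405, 453 and 480 FPKM (chromosome 10, 86690841 to 86705444). Profile 1 was the highest of the 3 for Hspa5 and the lowest for Hsp90b1. The ratio of Hspa5 to Hsp90b1 was 2.18, 1.34 and 1.55. Of the exonic bases of Hsp90b1 in GENCODE M21, 15.7% are shared with other annotated genes, partly on the opposite strand, and the library kit is not described as keeping strand. Canx, the membrane lectin calnexin that holds glycoproteins during folding, stood at 153, 137 and 133 FPKM. Calr, the soluble lectin calreticulin, had no row of its own and its level is not reported here.

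The partners of BiP stood well below it. Hyou1, a large Hsp70-like protein that exchanges nucleotide on BiP, was at 63.5, 53.4 and 60.9 FPKM, and the ratio of Hspa5 to Hyou1 was 13.9, 11.3 and 12.2. Sil1, the other exchange factor, was at 19.1, 28.4 and 29.0 FPKM. Sil1 was lowest in profile 1, where Hspa5 was highest, so that the ratio of Hspa5 to Sil1 was 46.3 there against 21.3 and 25.6. The J-domain co-chaperones, which deliver clients to BiP, were of similar level. Dnajb11 was at 50.5, 45.4 and 42.5 FPKM, Dnajb9 at 38.6, 27.1 and 31.4, Dnajc3 (p58IPK, also known as an inhibitor of eIF2-alpha kinases) at 25.4, 18.3 and 19.9, and Dnajc10, which also reduces disulfides of proteins bound for degradation, at 20.7, 17.4 and 19.8. All 4 were highest in profile 1. Sdf2l1, found with BiP and Dnajb11 in chaperone complexes, was at 36.7, 24.5 and 26.6 FPKM. Manf, a secreted ER stress protein that binds BiP, was at 80.1, 53.2 and 57.4 FPKM, and 9.25% of its exonic bases are shared with other genes. For Manf and Sdf2l1 profile 1 stood apart and the other profiles lay close together.

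The disulfide enzymes varied less than the chaperones by the median span between lowest and highest profile, 0.21 against 0.45 on log2(FPKM + 1). P4hb, protein disulfide isomerase itself, was at 436, 507 and 493 FPKM. Ero1l, the oxidase that recharges it, was at 405, 372 and 382 FPKM, close to the level of its substrate. Ero1lb, the second oxidase, best known from pancreas and stomach, was at 3.89, 3.04 and 3.46 FPKM, so Ero1l exceeded it by ratios of 104, 122 and 111. Pdia3 (ERp57), which works with calnexin and calreticulin on glycoproteins, was at 266, 265 and 281 FPKM. It spanned 0.08 on the log2(FPKM + 1) scale, the narrowest of the 38 expressed genes. Pdia6, which also attenuates IRE1 signalling, was at 203, 186 and 208 FPKM, and Pdia4 (ERp72) at 84.1, 90.7 and 99.5. Txndc5 (ERp46), a disulfide isomerase, was at 75.9, 68.1 and 70.9 FPKM, and shares 11.9% of its exonic bases with genes on the opposite strand. Creld2, a small stress-induced protein with isomerase activity, was at 59.0, 43.1 and 42.6 FPKM, with profile 1 above 2 profiles that lay close together. Pdia5, which acts on ATF6, was low, at 4.49, 3.02 and 4.68 FPKM. Its ratio of highest to lowest profile, 1.55, was the largest among these enzymes.

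Degradation genes were of middle to low level. Derl1, a rhomboid-like channel component, was at 41.2, 30.5 and 31.6 FPKM. Syvn1 (HRD1), the ubiquitin ligase, was at 34.3, 24.3 and 23.5 FPKM, and its cofactor Sel1l at 29.6, 21.4 and 23.2. In all 3 of these genes profile 1 was the highest, above 2 closely spaced profiles. Herpud1, which organises the ligase complex and is itself short-lived, was at 34.1, 18.3 and 23.0 FPKM, a span of 0.86. Proteins of the mannosidase family that mark glycoproteins for disposal stood near each other, Edem1 at 25.3, 20.2 and 20.2 FPKM and Edem2 at 20.8, 19.0 and 22.2. Derl2 was at 17.1, 12.6 and 11.8 FPKM. Derl3, the form known from secretory organs and one of the ERSE-bearing genes above, was at 6.16, 2.43 and 4.66 FPKM. Its span of 1.06 was the widest of the 38 genes. The row of Derl3 (chromosome 10, 75893138 to 75922534) begins before its upstream ERSE copy, which starts at 75893242. That of Syvn1 (chromosome 19, 6043290 to 6057751) likewise begins before its copy, at 6046532. The coordinates of both rows may thus reach beyond the gene. Edem2 was the single gene of this class that was not highest in profile 1.

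Translocon genes other than Ssr1 were abundant, and all were ordered alike at the top. Sec61b, the small beta subunit, was at 163, 140 and 137 FPKM. Sec61a1, the channel itself, was at 101, 79.7 and 84.8 FPKM, and Sec61g, the gamma subunit, at 90.8, 76.5 and 76.7. Per unit of length, Sec61b exceeded Sec61a1 by ratios of 1.61, 1.75 and 1.62. Ssr3 and Ssr1 encode the gamma and alpha subunits of the translocon-associated protein complex. Ssr3 was at 175, 132 and 154 FPKM, and Ssr1 at 29.3, 23.7 and 22.1, several times lower. Both proteins sit in 1 complex, but these RNA levels rest on transcript lengths that were not given and are no ratio of proteins. All 5 genes were highest in profile 1.

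Sensors and proteases had no common order. Xbp1, the transcription factor made by IRE1 splicing, was at 115, 132 and 128 FPKM and was lowest in profile 1. Ern1, the splicing sensor, was at 7.75, 9.89 and 9.59 FPKM, also lowest in profile 1. The ratio of Xbp1 to Ern1 was 14.8, 13.4 and 13.3. The gene-level value does not tell spliced from unspliced Xbp1. IRE1 cuts the mRNA within a pair of 7-base loops whose sequences, in a GENCODE M21 transcript of the gene (chromosome 11), begin 26 bases apart. They are shown in capitals with the bases between them, since it is the removal of 26 bases here that a level in FPKM cannot show.

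Xbp1: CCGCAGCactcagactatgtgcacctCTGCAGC

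A search for the loop letters CNGCAGC at that spacing found this pair alone in that transcript of 2129 bases. Atf6b, the relative of ATF6, was at 31.4, 30.9 and 29.0 FPKM, and the row shared by Atf6 and Dusp12 at 22.6, 16.5 and 17.1. Mbtps1, the site-1 protease, was at 27.5, 27.2 and 29.1 FPKM. Mbtps2, the site-2 protease, was at 14.7, 11.6 and 10.9 FPKM, but 28.4% of its exonic bases are shared with Yy2. Of these genes on rows of their own, Mbtps2 had the widest span, 0.40, followed by Ern1 at 0.32, and the shared row spanned 0.43.

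**Figure D2:**
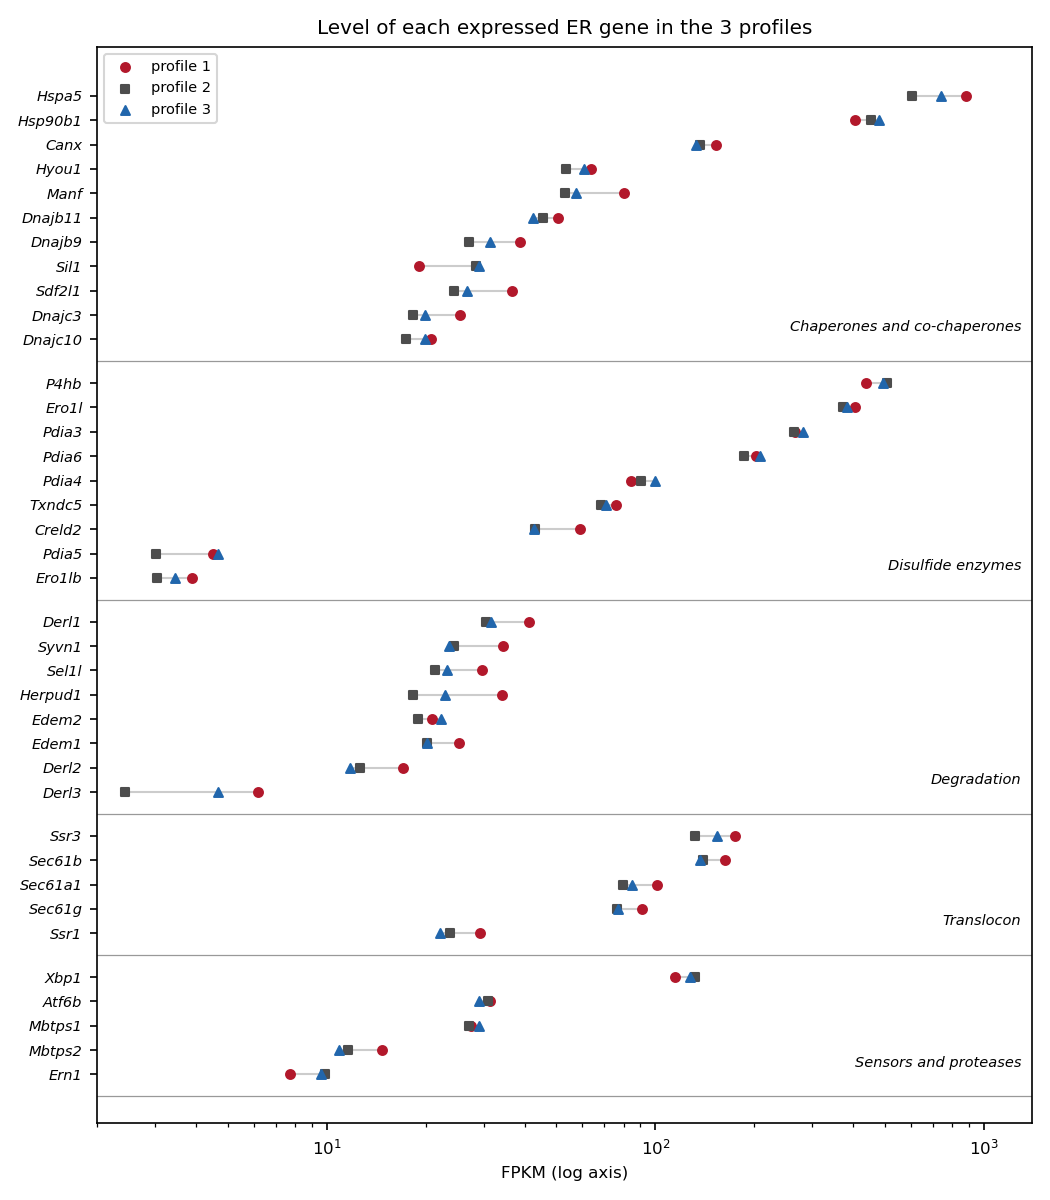
FPKM of the 38 expressed ER genes on a log axis, grouped by role, with 1 point for each of the 3 profiles and a grey line for their range. Levels run from 2.43 FPKM (Derl3 in profile 2) to 883 FPKM (Hspa5 in profile 1), and within most genes the points lie close together.

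Profile 1 was the highest of the 3 for most of these genes. Of the 38 expressed genes, 27 (71.1%) were highest in profile 1, 3 in profile 2 and 8 in profile 3, where all expressed symbols gave 34.8%, 28.7% and 36.5%. The excess was uneven over roles. It held for 9 of 11 chaperones and co-chaperones, for 7 of 8 degradation genes and for 5 of 5 translocon genes. It held for 4 of 9 disulfide enzymes and 2 of 5 sensors and proteases, shares of 44.4% and 40.0% that lie near the 34.8% of all symbols. The 3 genes highest in profile 2 were P4hb, Xbp1 and Ern1. Scaling by median ratios left these counts as they were, where 39.2% of all symbols were highest in profile 1. Quantile normalization gave 29, 3 and 6, with 6 of 9 disulfide enzymes then highest in profile 1. There, all symbols gave 40.5% for profile 1.

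The size of the difference was modest. On the log2(FPKM + 1) scale, profile 1 minus the mean of the others had a median of 0.22 over the 38 genes and of -0.03 over all expressed symbols. By role the median was 0.43 for degradation, 0.29 for the translocon, 0.20 for chaperones, 0.10 for disulfide enzymes and -0.03 for sensors and proteases, the last being 0.0023 after median-ratio scaling. Profile 1 was above profile 2 in 32 of the 38 genes (84.2%, all symbols 47.4%) and above profile 3 in 27 (71.1%, all symbols 47.3%). Profile 2 was above profile 3 in 13 (34.2%, all symbols 47.8%).

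**Figure D3:**
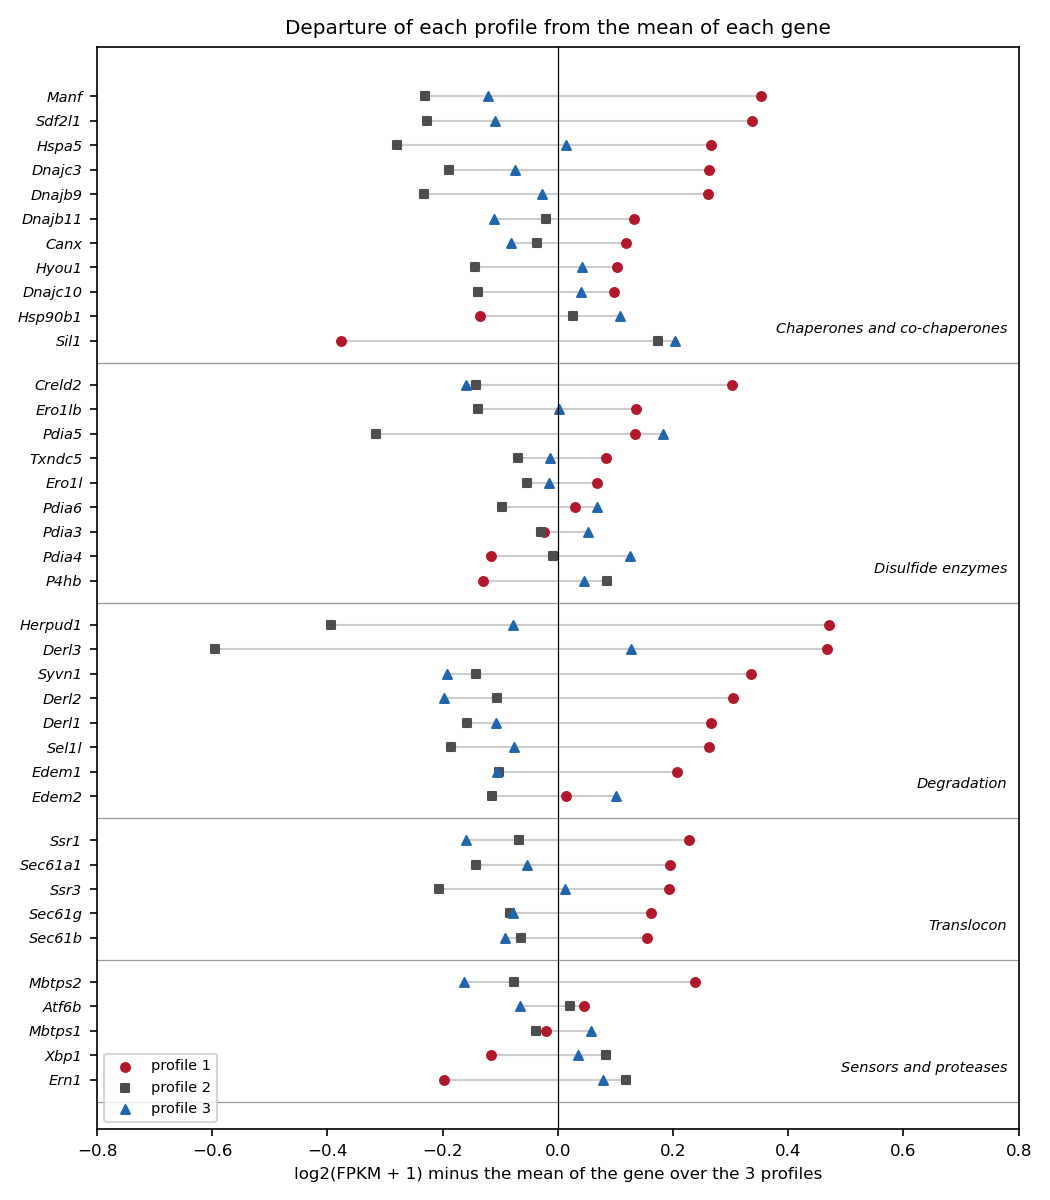
Departure of each profile from the mean of each gene, on log2(FPKM + 1), for the 38 expressed ER genes grouped by role. Profile 1 (red) lies to the right of the others for 27 genes, among them all translocon genes, and is the lowest for 6, among them Sil1, Ern1 and Xbp1. Of all expressed symbols, 34.8% were highest and 40.1% lowest in profile 1.

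Wide spans were counted beside those of all expressed symbols. A span of 0.5 or more on log2(FPKM + 1) between the lowest and the highest profile was seen in 8 of 38 genes (21.1%), near the 17.7% of all expressed symbols. Where the mean reached 10 FPKM it was 7 of 34 (20.6%), against 13.1%. The 8 were Hspa5, Sdf2l1, Sil1, Manf, Herpud1, Syvn1, Derl2 and Derl3, 4 chaperones and 4 degradation genes. Sil1 was the one among them that was low in profile 1. By pairs, 6 of 38 genes (15.8%) differed by 0.5 or more between profiles 1 and 2, where 7.73% of all symbols did. Between profiles 1 and 3 there were 4 (10.5%), near the 12.4% of all symbols. Between profiles 2 and 3 there was 1 (2.63%), Derl3, against 7.66% of all symbols. Without profile 1, 1 gene (Derl3) kept a span of 0.5 or more, and 4 did without profile 2. With 3 profiles of unknown group, none of these differences has a test.

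The genes with an ER stress element were counted apart. Of 11 expressed genes with ERSE or ERSE-II, 9 were highest in profile 1 and the median of profile 1 minus the others was 0.39, where all expressed symbols gave 34.8% and -0.03. Of 22 expressed genes with a window and neither element, 14 were highest there and the median was 0.16. The exceptions with an element were Hsp90b1 and Pdia6, the former with 2 copies. Role and element overlap in this list, so their parts cannot be told apart. Genes outside the list with an element were not counted. Of the expressed ones looked up, Krtcap2 (235, 163 and 161 FPKM) was highest in profile 1. Nucb1, with ERSE-II, was lowest there (43.0, 62.5 and 69.8), and Alg12 was nearly level (6.30, 6.31 and 6.20).

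Most chaperones listed for other compartments were lowest in profile 1. That order was also seen in the ER, in 6 of the 38 genes (among them Hsp90b1, P4hb and Sil1) and in 14 of 25 further ER folding enzymes counted below. Hspa8, the constitutive Hsp70 of the cytosol, stood at 2283, 3015 and 2872 FPKM, and the ratio of Hspa5 to Hspa8 was 0.387, 0.201 and 0.258. Hsp90ab1, the constitutive cytosolic Hsp90, was at 1498, 2183 and 2016 FPKM, and the inducible Hsp90aa1 at 803, 1112 and 840. Of 9 cytosolic and mitochondrial chaperone genes with rows of their own, 7 were lowest in profile 1, where 40.1% of all expressed symbols were. The other such genes were Hsph1, an exchange factor (150, 191 and 191 FPKM), the Hsp70 co-chaperone Bag1 (82.2, 111 and 114), Dnajb1 (72.1, 79.3 and 79.5) and the mitochondrial Hsp90 Trap1 (40.1, 46.6 and 41.9). Hspa9, the mitochondrial Hsp70, was highest in profile 1, at 412, 389 and 375 FPKM, and so was the cytosolic J-protein Dnaja1, at 68.7, 66.5 and 66.9. Genes such as Hspa8 and Hsp90ab1 have processed copies in the genome, and how reads were divided among copies is not known. Hspa1a and Hspa1b had no row of their own.

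**Figure D4:**
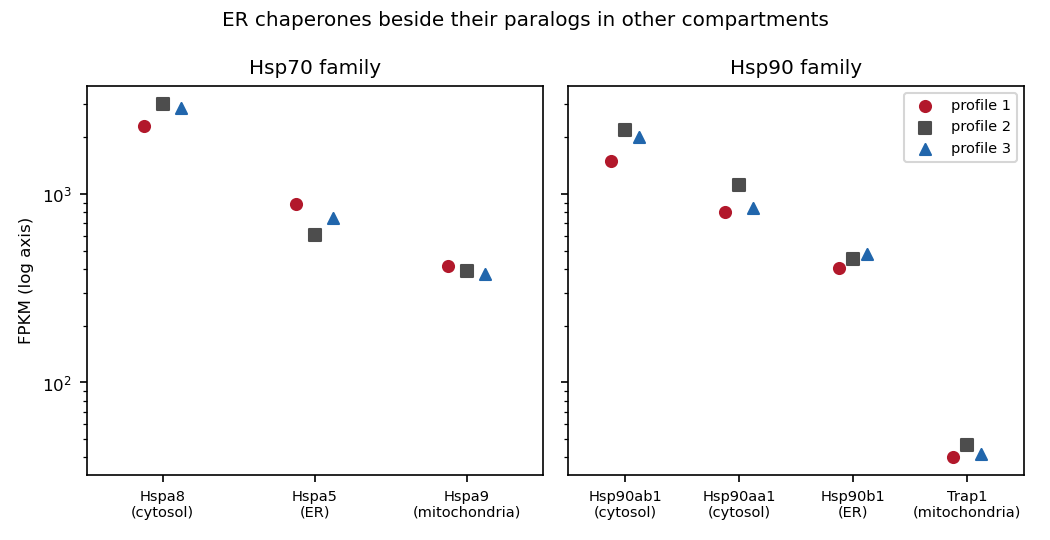
FPKM (log axis) of Hsp70 and Hsp90 family genes of the ER, cytosol and mitochondria, with 1 point for each profile. In profile 1 the ER Hsp70 Hspa5 was highest (883 FPKM) and the cytosolic Hspa8 lowest (2283 FPKM), whereas Hsp90b1 (405 FPKM) and both cytosolic Hsp90 genes were lowest.

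Further genes of the same pathways were counted from lists made by pathway. In the PERK arm, 7 of 10 genes (70.0%) were highest in profile 1, where 34.8% of all expressed symbols were. Atf4, its transcription factor, was at 354, 270 and 322 FPKM, the ATF4 target Asns (asparagine synthetase) at 190, 135 and 122, and Chac1, which degrades glutathione, at 35.9, 15.6 and 15.4. Of 15 further degradation genes 11 (73.3%) were highest in profile 1. However, the most abundant, the extracting ATPase Vcp (226, 277 and 254 FPKM) and the holdase Bag6 (68.5, 75.7 and 74.9), were lowest there. The widest span in that list belonged to Herpud2, the relative of Herpud1, at 25.4, 18.6 and 22.2 FPKM. Of 19 further targeting and translocation genes 11 (57.9%) were highest in profile 1, but the median of profile 1 minus the others was 0.09. Ssr2 and Ssr4 encode the other subunits of the translocon-associated complex. Ssr2 was at 194, 169 and 173 FPKM, Ssr4 at 128, 125 and 116, and Tram1, a partner of the channel, at 98.8, 74.5 and 63.0.

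Glycan genes and further folding enzymes were counted in the same way. Of 20 genes of glycan transfer and quality control, 13 (65.0%) were highest and 6 lowest in profile 1, where 34.8% of all symbols were highest and 40.1% lowest. The genes named for their level or span are subunits of oligosaccharyltransferase. Krtcap2 was at 235, 163 and 161 FPKM, Dad1 at 152, 127 and 128, and Ostc at 89.3, 55.2 and 61.6. Of 25 further folding enzymes 8 were highest in profile 1, and this 32.0% lies near the 34.8% of all symbols. Of the same 25, 14 were lowest in profile 1, where 40.1% of all symbols were. Among them all, the prolyl isomerase Ppib stood at 144, 161 and 164 FPKM and the sulfhydryl oxidase Qsox1 at 129, 180 and 142. Serp1, a small stress-induced translocon protein, stood at 200, 119 and 115. Of 12 other ER transcription factors and regulators 3 (25.0%) were highest in profile 1, against 34.8% of all symbols. After median-ratio scaling 6 (50.0%) were, against 39.2%. In that list Tmbim6 (BI-1), an inhibitor of IRE1, stood at 294, 262 and 264 FPKM. Yy1, a factor known to act on ER stress elements with ATF6, stood at 68.5, 61.4 and 68.9 FPKM, and Nfyb, a subunit of the CCAAT-binding factor NF-Y, at 18.3, 14.0 and 13.6.

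**Figure D5:**
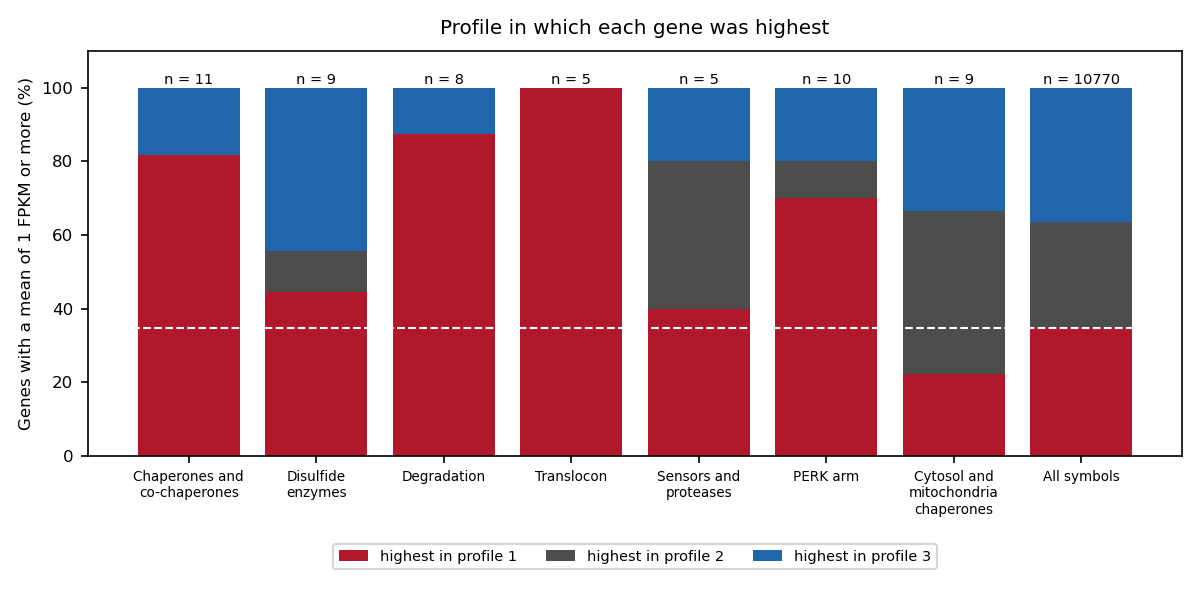
Share of expressed genes (mean FPKM at least 1) that were highest in each profile, for the 5 roles, the PERK arm, chaperones of other compartments and all symbols, with the number of genes above each bar. The dashed line is the 34.8% of all symbols highest in profile 1; the translocon (5 of 5), degradation (7 of 8) and chaperone genes (9 of 11) lie above it, and chaperones of other compartments (2 of 9) below.

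Markers of other cells moved between the profiles as well. Epithelial markers were high throughout: the keratins Krt18 (4232, 5010 and 4959 FPKM) and Krt8 (3060, 3231 and 3285), and the claudin Cldn4 (1222, 744 and 1101). All 10 fibroblast markers were lowest in profile 1, where 40.1% of all expressed symbols were, with summed levels of 82.0, 186 and 282 FPKM. Among them were Dcn (18.2, 54.4 and 66.8 FPKM), Col1a1 (18.6, 31.2 and 54.3) and Col3a1 (15.1, 21.0 and 59.4). The 12 salivary gland markers summed to 50.0, 53.7 and 918 FPKM, with Smr3a at 0.615, 0.239 and 561 and Bpifa2 at 0.0697, 0.442 and 177. Endothelial markers summed to 39.7, 39.0 and 17.0 FPKM (Emcn 9.25, 9.95 and 3.50, Cdh5 7.50, 8.43 and 3.72) and myeloid markers to 3.73, 2.97 and 5.53 FPKM (Lyz2 2.17, 1.44 and 3.25, Csf1r 0.791, 1.15 and 1.40). Of the genes listed for plasma cells, which are rich in ER, Igj was at 0, 0.0596 and 0 FPKM and Tnfrsf17 at 0.0767, 0 and 0. Cd79a, which B cells also express, was at 0.166, 0.1001 and 0.0857 FPKM. Bhlha15, a factor of secretory cells and plasma cells, had been listed with the salivary gland markers and stood at 3.38, 1.76 and 1.27 FPKM. It was highest in profile 1, whereas 8 of the 10 expressed salivary gland markers were highest in profile 3, where 36.5% of all expressed symbols were. Of 13 plasma cell markers 7 had rows (Mzb1, Ighm, Igkc, Iglc1 and Iglc2 had none of their own, and Jchain is the newer symbol of Igj), and of these Sdc1 (125, 109 and 116 FPKM), which epithelium also expresses, and Prdm1 (1.68, 2.47 and 1.36) reached 1 FPKM. The part of these other cells in the order of the ER genes was not tested. In tissue of this kind fewer cells of a type and less RNA per cell cannot be told apart.

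The authors' deposited table also holds a summary column, headed as a total of FPKM, whose values are of the size of a mean. In 16 of the 38 expressed ER genes (42.1%) this summary was above all 3 profiles, which a mean over these profiles alone cannot be, whereas 15.6% of all expressed symbols showed this. The 16 included 7 of 9 disulfide enzymes and 5 of 11 chaperones, but 2 of 8 degradation genes, 2 of 5 sensors and 0 of 5 translocon genes. In the authors' deposited table the summary of Hsp90b1 was 526 FPKM, that of Pdia4 117, that of Xbp1 147 and that of Ern1 11.7, each above its 3 profiles. The sources used here do not say which values entered the summary.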

How the data were processed

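Gene levels were read from 1 table that the authors deposited for the whole series, with FPKM per gene in 6 sample columns and 1 summary column, here in a text copy of a workbook sheet. The build is mm10 and the tools named are Cuffdiff, Cufflinks 2.1.1 and TopHat2 2.0.9, per the submitters' processing notes. Their roles, the annotation, filters and any scaling between libraries were not given in the sources used. Of 24308 rows, 1366 name no gene and 514 name several. They were left out of gene counts and kept in totals. Control columns were matched to samples by title. The knockout columns, headed PyMT_Elp3CRE, differ in name from the titles PyMTElp3cKO. They were matched by number and because the design text calls these tumors Elp3 cKO MMTV-CRE. Of the sample columns, 0 were left unmatched.

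The planned comparison of genotypes with limma was not run, because same-numbered columns are identical. All results are descriptions over the 3 distinct profiles, each counted once: values per profile, the profile with the highest value, and the span on log2(FPKM + 1), on which low genes appear to differ less than they do. A gene whose mean reached 1 FPKM was counted as expressed, beside the same share over all symbols. The genes, their roles and the other lists were chosen with earlier results of these data known. All 41 genes are named. Of other lists, the 2 genes with the highest mean and, at a mean of 5 FPKM or more, the one with the widest span are named, and every chaperone paralog is. Igj, Cd79a, Tnfrsf17, Bhlha15, Alg12, Nucb1 and 1700122E12Rik were chosen after their values or matches were seen. Promoter windows came from RefSeq (GRCm38.p6), and exon overlaps and the Xbp1 transcript from GENCODE M21, both on the assembly of mm10. All 39 rows overlap the GENCODE gene of the same name, which does not show that a row is bounded by its gene. Row starts were raised by 1. The procedures were tested on simulated data. Python 3.11.15, pandas 2.3.3, numpy 2.4.6 and matplotlib 3.10.9 were used. Results were recomputed without each replicate number, with rows of a symbol summed, with another pseudocount and other minimum levels, and after quantile or median-ratio scaling.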

Additional observations from a re-analysis of the deposited data

Results flagged for a closer look

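A signal stood outside the profiles: in 16 of the 38 expressed ER genes the authors' summary column was above every profile of the table. For Derl3 the summary in the authors' deposited table was 9.62 FPKM, while the profiles stood at 6.16, 2.43 and 4.66 FPKM. Values that the table does not list must have entered such a summary if it is a mean, and what they are was not tested.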

How the results depend on the processing

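No paired analysis was possible because columns of equal number hold one and the same set of values, which leaves differences of 0 and no residual spread. The settings planned for the genotype fit (pseudocount and replicate block) were not run for that reason. The number of genes spanning 0.5 or more on log2(FPKM + 1), 8 as reported, lay between 1 and 6 without each replicate number: it was 1 without replicate 1, 4 without replicate 2 and 6 without replicate 3, and fewer profiles can only narrow a span. It was 10 after median-ratio scaling, 9 after quantile normalization and 10 with a pseudocount of 0.1. The minimum of 10 FPKM was chosen after seeing the data and gave 7, and 25, 2 and 7 genes highest in profiles 1, 2 and 3. Median levels of the 5 roles and the level of each of the 39 genes moved by no more than the spread (1 SD) of the profiles under both scalings. For the level of a gene, leaving out 1 of 3 values cannot move a median by more than that, so it tests nothing. The role medians are taken over genes, so this bound does not apply to them. They too moved by no more than that spread when a replicate was left out. No symbol of the 39 stood on several rows, so summing rows changed nothing. Without counts, the depth behind low values such as those of Derl3, Pdia5 and Ero1lb is unknown.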

Other observations

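The digits of the summary column bear on what it averages. Times 9, it ended at 4 decimals in 85.4% of the 6491 rows examined, those of middle to high level. The next best whole multipliers tried gave 28.5%. If it is a mean of 9 values in which the 3 profiles stand 2 times each, then 9 times the summary minus 2 times the profiles, divided by 3, is the mean of 3 values that are not shown. That remainder was below 0 in 0 rows. It was above all 3 profiles in 26 of the 38 expressed ER genes (68.4%) and below all of them in 6 (15.8%), where all expressed symbols gave 29.3% and 42.2%. By role it was above the profiles in 9 of 11 chaperones, 8 of 9 disulfide enzymes, 6 of 8 degradation genes, 3 of 5 sensors and proteases, and 0 of 5 translocon genes. From the authors' deposited table, the remainder was 20.0 FPKM for Derl3 against a profile mean of 4.42, 52.4 against 25.1 for Herpud1, 44.3 against 21.2 for Dnajc3 and 95.4 against 48.2 for Creld2. It was 1023 against 744 FPKM for Hspa5 and 169 against 91.4 for Pdia4. Among the sensors it was 192 against 125 FPKM for Xbp1 and 16.9 against 9.08 for Ern1. It was lower for Sil1, 15.7 against 25.5 FPKM, and for Sec61b, 113 against 147. These genes were picked after their values were seen. The remainder rests on the assumption about the summary, has no spread and no label, and no genotype is assigned to it.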
